A study of Sus scrofa with 61 samples.

Results

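The genes described here act in mitosis: the kinases and cyclins that drive entry, the motors and binding proteins of the spindle, the kinetochore and its checkpoint, the chromosomal passenger complex, the factors of anaphase onset, the cytokinesis machinery and the condensins. They were chosen by name from known function, as a list of 45 genes, but with earlier results of these data known. Of these 45 members, 38 had at least 1 probe on the array and 35 had a probe that passed the filter on dim signal, which asked that a probe be well above background on 80% of the arrays of at least 1 group. The 35 were measured by 72 kept probes of the 42436 kept on the whole array. CENPE, KIF20A and NUF2 had probes of which none passed, and BUB1B, CCNA2, CENPA, HMMR, MAD2L1, NCAPG and NDC80 are not analysed here. 1 probe per member, the brightest one that the array itself names, carries the results, and the other probes are described together below. SPC25 was named only through the study's own lists of changed probes, so its differences are not independent of that choice.

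Dividing cells duplicate their chromosomes, condense them, attach them to a bipolar spindle through kinetochores and part them once the spindle checkpoint is satisfied. Most of the genes involved are transcribed in late S phase and G2 and are silent in resting cells, so their RNA in a tissue follows the number of cycling cells and their RNA per cell. In fetal muscle the cycling cells are myoblasts, satellite cells and the cells of connective tissue, vessels and blood, whereas the nuclei of fused muscle fibres no longer divide. In bulk RNA such as this, fewer cells of a type and less RNA per cell cannot be told apart.

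RNA of the longissimus muscle was taken from 61 male pig fetuses delivered by caesarean at day 90 or day 110 of gestation and measured on 1-colour Agilent arrays, 1 array per fetus. At day 90 there were 8 fetuses each of Large White (LW), Meishan (MS), LWMS (Meishan sow, Large White boar) and MSLW (Large White sow, Meishan boar). At day 110 there were 9 LW, 7 MS, 8 LWMS and 5 MSLW. Sows were inseminated with mixed semen, so LW and MSLW fetuses came from LW sows and MS and LWMS fetuses from MS sows. The labels used here do not tie fetuses to sows, and littermates were counted as separate fetuses. For comparisons between litters, such as those of age and of sow breed, the p-values are then too small. A difference between sow breeds cannot be told apart from one between litters. Boar breeds were mixed within litters, so the p-values for the boar may instead be too large. The labelled tissue was borne out by its markers, since all 8 muscle fibre genes checked were well above background, with a mean log2 signal of 17.1 to 17.9 in every fetus. Between 34346 and 45683 probes were well above background per array, the lowest in MS fetus 3 of day 90, and leaving that array out moved no count of called members by more than 1.5 times.

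The probes are 60 bases long, and 7 of them are shown in lower case, for genes on which the results below turn, so that what was hybridised can be seen. They are given as the scanner files list them, 5′ to 3′ and without a genome position, since the array names no build; no bases are in capitals because no part of a probe was singled out. The 2 PRC1 probes are shown because they gave different values, and the second of them was named by the study's lists only.
TOP2A: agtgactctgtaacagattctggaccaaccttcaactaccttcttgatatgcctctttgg
CDK1: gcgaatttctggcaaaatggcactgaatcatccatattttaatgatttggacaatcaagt
CDC20: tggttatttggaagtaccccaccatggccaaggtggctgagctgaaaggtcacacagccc
KIFC1: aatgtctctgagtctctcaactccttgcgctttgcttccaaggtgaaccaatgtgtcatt
PLK1: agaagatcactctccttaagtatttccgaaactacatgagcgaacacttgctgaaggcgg
PRC1, main probe: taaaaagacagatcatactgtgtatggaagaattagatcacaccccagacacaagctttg
PRC1, other probe: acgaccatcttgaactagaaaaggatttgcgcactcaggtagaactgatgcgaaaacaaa

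Between day 90 and day 110 nearly the whole list fell. In LW 33 of 35 members were called lower at day 110 (limma, Benjamini-Hochberg adjusted p under 1% over all kept probes), where 23.5% of all probes were. In MS 33 were lower, against 28.1% of all probes, and in LWMS 32, against 25.7%. In MSLW 32 were lower, against 23.8%. The median log2 difference over the 35 members, day 110 minus day 90, was -2.77 in LW, -2.67 in MSLW, -3.38 in MS and -3.25 in LWMS, while the median over all probes lay between 0.02 and 0.04. Over the 27 members that passed the filter at both ages it was -2.77 in LW, -2.70 in MSLW, -3.58 in MS and -3.29 in LWMS. In 29 members every fetus of day 90 was above every fetus of day 110, an arrangement seen in 6.07% of all probes, and the exceptions were CDCA8, CKAP2, ECT2, KIF11, SMC2 and TTK. 8 members, ANLN, ASPM, CCNB2, CDCA8, KIF2C, PLK1, PRC1 and TTK, passed the filter only through day 90 and so had to be dimmer later. All of these but CDCA8 and TTK are among the 29 without overlap, where their separation follows in part from the filter. Of the 27 members that passed at both ages, 25 were lower in LW, 24 in MSLW, 25 in MS and 24 in LWMS. With normexp background correction, which adds an offset to dim signals, the median in LW was -1.82 and 33 members were still lower, so the size of the folds rests on how background is treated.

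**Figure D1:**
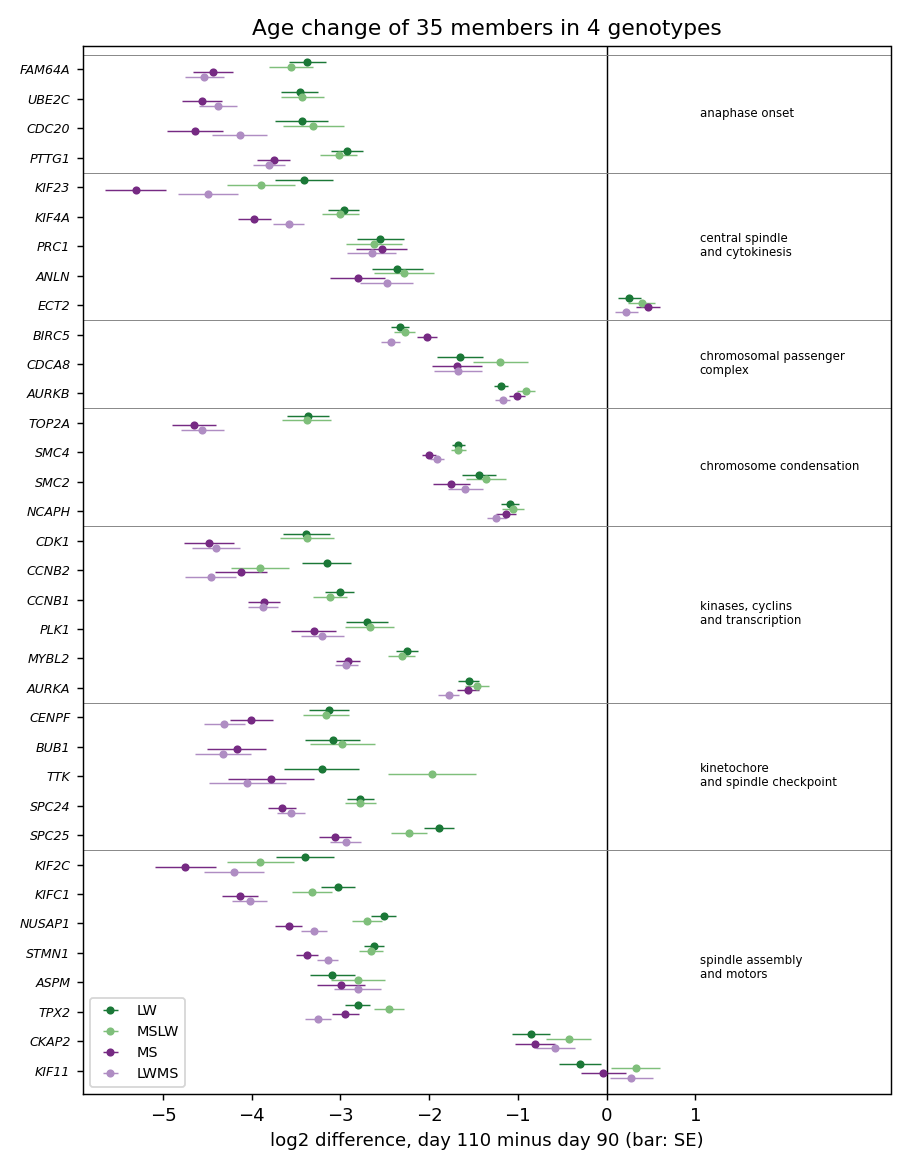
Each point is the log2 difference, day 110 minus day 90, of a member's main probe in 1 genotype, with a bar of 1 standard error on each side; colours mark LW and MSLW (greens, LW sows) and MS and LWMS (purples, MS sows). All members but ECT2 and KIF11 lie left of 0 in every genotype, and in many rows the purple points lie left of the green ones; for ANLN, ASPM, CCNB2, CDCA8, KIF2C, PLK1, PRC1 and TTK the day 110 signal was mostly not above background, so the size shown is not exact.

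Among the kinases, cyclins and their transcription factor, 6 of 6 measured members fell in every genotype. CDK1, the kinase that drives entry into mitosis, fell by 3.38 ± 0.26 (SE) in LW, a 10.4-fold decrease, and by 4.48 ± 0.28 in MS, 22.4-fold. At day 90 its log2 signal lay in LW from 10.02 to 10.52 (median 10.22) and in MS from 10.20 to 10.55 (median 10.38). At day 110 it lay in LW from 5.10 to 7.70 (median 6.85) and in MS from 4.90 to 7.27 (median 5.96), so the ages were fully apart and the breeds overlapped. CCNB1, a B-type cyclin that binds CDK1, fell by 3.01 in LW and by 3.86 in MS, and CCNB2, another, was at least 8.37-fold lower in MS, where no array of day 110 was above background. PLK1, a kinase of spindle assembly and mitotic exit, was well above background on 5 of 29 arrays at day 110 and on none of MS, where it was at least 5.97-fold lower than at day 90. MYBL2, a transcription factor of G2 genes, fell by 2.25 in LW and by 2.91 in MS. AURKA, the kinase of centrosome maturation, fell least in this group, by 1.55 ± 0.12 in LW, and by 1.56 ± 0.13 in the MS fetuses.

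Of the 8 measured genes of spindle assembly and motors, 7 fell in LW and in MS and 6 in each cross. KIF2C, a kinesin that removes tubulin from microtubule ends, was called lower in every genotype. Its log2 signal at day 90 lay in LW from 6.21 to 6.57 (median 6.32) and in MS from 6.11 to 6.81 (median 6.41). At day 110 it lay in LW from 1.54 to 4.06 (median 3.22) and in MS from 1.54 to 2.21 (median 1.60). LWMS ran from 6.10 to 6.98 at day 90 and 1.53 to 4.16 at day 110, and MSLW from 5.98 to 6.91 at day 90, with its 5 fetuses of day 110 at 1.55, 1.52, 4.36, 3.90 and 1.59. The ages did not overlap, but the probe passed the filter only through day 90 and so had to be dimmer later. At day 110 most fetuses lay near the lowest values of the array. The probe was well above background on 4 of 29 arrays at day 110 and on none of MS, so there the decrease is only bounded, at least 5.32-fold, taking per array the higher of the probe's own signal and the dimmest signal called above background. KIFC1, a minus-end motor that focuses spindle poles, fell by 3.03 ± 0.19 in LW and 4.13 ± 0.21 in MS. NUSAP1, which bundles spindle microtubules, fell by 2.51 and 3.58, and STMN1, which destabilises microtubules and is also abundant outside mitosis, by 2.62 and 3.38. TPX2, an activator of AURKA on the spindle, fell by 2.80 and 2.94. ASPM, a spindle pole protein, was above background on no array of day 110, and was at least 2.81-fold lower in LW and 2.88-fold lower in MS.

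CKAP2, a microtubule stabiliser, and KIF11, the kinesin that pushes the poles apart, had the smallest changes. CKAP2 fetuses of LW read 4.97 to 5.60 at day 90 and 4.08 to 4.63 at day 110, those of MS 4.72 to 6.02 and 3.28 to 4.91. In LWMS it ran from 4.65 to 6.22 and from 3.69 to 5.13, and in MSLW from 4.52 to 5.38 and from 3.58 to 5.84, so the ages overlapped except in LW. It was called lower in LW (by 0.85) and MS (by 0.81) and not in the crosses. The main KIF11 probe was not called in any genotype: in LW it ran from 5.19 to 6.68 (median 6.33) at day 90 and from 5.26 to 7.20 (median 5.55) at day 110, so the ages overlapped. Its medians at the 2 ages were 6.27 and 6.06 in MS, 5.85 and 6.03 in LWMS and 6.38 and 6.58 in MSLW, and the differences in the 4 genotypes lay between -0.29 and 0.33. The other KIF11 probe was called lower in LW and MS, but it passed the filter only through day 90 and so had to be dimmer later.

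All 5 measured genes of the kinetochore and spindle checkpoint fell in every genotype. CENPF, a large protein of the outer kinetochore, fell by 3.12 ± 0.23 in LW and by 4.002 ± 0.24 in MS. BUB1, a checkpoint kinase, fell by 3.08 in LW and by 4.17 in MS, where 2 of 7 fetuses were well above background at day 110. SPC24, a subunit of the complex that grips microtubules, fell by 2.77 in LW and by 3.66 in MS, and its partner SPC25 by 1.89 and by 3.06. TTK, the kinase that starts the checkpoint, was called lower in every genotype, but was well above background on 4 of 29 arrays at day 110, so only a bound is given, at least 4.53-fold in LWMS, and 1 MS fetus of each age had no value because its spot was not uniform. 1 of the 4, MSLW fetus 5, read 8.12, with the other 4 MSLW fetuses at 1.78, 3.44, 4.52 and 3.10.

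The 4 genes of anaphase onset fell in every genotype, by 2.92 to 3.46 in LW and 3.75 to 4.64 in MS. UBE2C, the conjugating enzyme of the anaphase-promoting complex, fell by 3.46 ± 0.21 in LW and 4.56 ± 0.22 in MS, and CDC20, its activator, by 3.44 and 4.64. FAM64A, a regulator of the metaphase to anaphase step, fell by 3.37 and 4.44, and PTTG1, or securin, by 2.92 and 3.75. CDC20 was well above background on all 32 arrays of day 90 and on 14 of 29 of day 110.

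The 3 members of the chromosomal passenger complex, which corrects faulty attachments, fell in every genotype. BIRC5, or survivin, fell by 2.33 ± 0.10 in LW and 2.02 ± 0.11 in MS, and the kinase AURKB by 1.19 and 1.00, while the other 2 AURKB probes fell by 1.95 to 1.96 in LW. CDCA8, or borealin, was dim: at day 90 it was well above background on 30 of 32 arrays, at day 110 on 2 of 29. LW fetuses read 4.50 to 5.34 (median 4.92) at day 90 and 1.68 to 5.27 (median 3.31) at day 110, and MS fetuses 4.24 to 4.98 (median 4.86) and 2.22 to 3.62 (median 3.09). The ages overlapped in LW and not in MS, but CDCA8 passed the filter only through day 90 and so had to be dimmer later. Its fall was at least 1.68-fold in MS and 1.60-fold in LWMS, where no array of day 110 was above background.

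Of the 5 measured genes of the central spindle and cytokinesis, 4 fell in each genotype. KIF23, the motor of the central spindle complex, had the largest fitted fall averaged over the 4 genotypes, though not in LW, MSLW or LWMS taken alone. At day 90 the log2 signal was 8.92 to 9.32 (median 9.10) in LW, 8.75 to 9.33 (median 8.99) in MSLW, 8.91 to 9.41 (median 9.15) in MS and 8.81 to 9.46 (median 9.27) in LWMS, and the 4 groups overlapped. At day 110 it was 4.17 to 6.52 (median 5.49) in LW, 1.81 to 5.20 (median 4.40) in MS and 4.13 to 5.40 (median 4.64) in LWMS. The 5 MSLW fetuses read 3.33, 5.47, 6.99, 5.37 and 4.46. All fetuses of day 110 were below all of day 90, while the genotypes overlapped at day 110. The decrease was 5.31 ± 0.35 in MS and 3.41 ± 0.33 in LW, with 3 of 7 MS and 8 of 9 LW fetuses well above background at day 110, and with normexp background correction it was 3.03 in MS and 2.38 in LW. KIF4A, a motor of the chromosome arms and central spindle, fell by 2.96 in LW and by 3.97 in MS. ANLN, an actin scaffold of the cleavage furrow, was above background on 1 of 29 arrays of day 110 and was at least 2.14-fold lower in LW and 2.11-fold lower in MS. PRC1, which bundles the central spindle, was called lower in every genotype on its main probe. LW fetuses read 5.08 to 5.43 at day 90 and 1.60 to 3.26 at day 110, and MS fetuses 5.23 to 5.65 and 1.75 to 3.47. The ages did not overlap, but this probe passed the filter only through day 90 and so had to be dimmer later. It was above background on 2 of 29 arrays at day 110, so that the fall was at least 2.34-fold in LW and 2.59-fold in MS.

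ECT2, which activates RhoA at the cleavage site, went the other way. It was the 1 member called higher at day 110, in MS alone, where 28.6% of all probes were called higher. In MS it read 7.03 to 7.87 at day 90 (median 7.62) and 7.70 to 8.38 at day 110 (median 7.95), an increase of 0.47 ± 0.13 (adjusted p = 0.00216). LW fetuses read 7.14 to 7.90 and 7.35 to 8.21 at the 2 ages, LWMS fetuses 7.35 to 7.84 and 7.48 to 8.18, and MSLW fetuses 7.03 to 7.70 and 7.64 to 8.06. The ages overlapped in all 4 genotypes, the differences in the others were 0.22 to 0.39, and that of MS minus LW in the age change was 0.21 ± 0.19 (adjusted p = 0.501). It had 1 kept probe.

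All 4 measured condensation genes fell in every genotype. TOP2A, the topoisomerase that disentangles sister chromosomes, read at day 90 11.24 to 11.83 (median 11.59) in LW, 11.31 to 12.03 (median 11.80) in MSLW, 11.26 to 12.02 (median 11.85) in MS and 11.47 to 12.06 (median 11.64) in LWMS. At day 110 it read 6.63 to 9.02 (median 8.26) in LW, 6.41 to 7.76 (median 7.16) in MS and 6.58 to 7.98 (median 6.99) in LWMS. The 5 MSLW fetuses read 7.51, 8.29, 9.78, 8.47 and 7.48. The falls were 3.37 ± 0.24 in LW, 3.38 ± 0.28 in MSLW, 4.65 ± 0.25 in MS and 4.56 ± 0.24 in LWMS. The condensin core subunits SMC2 and SMC4 fell by 1.44 and 1.67 in LW, and NCAPH, which closes the condensin ring, by 1.09.

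**Figure D2:**
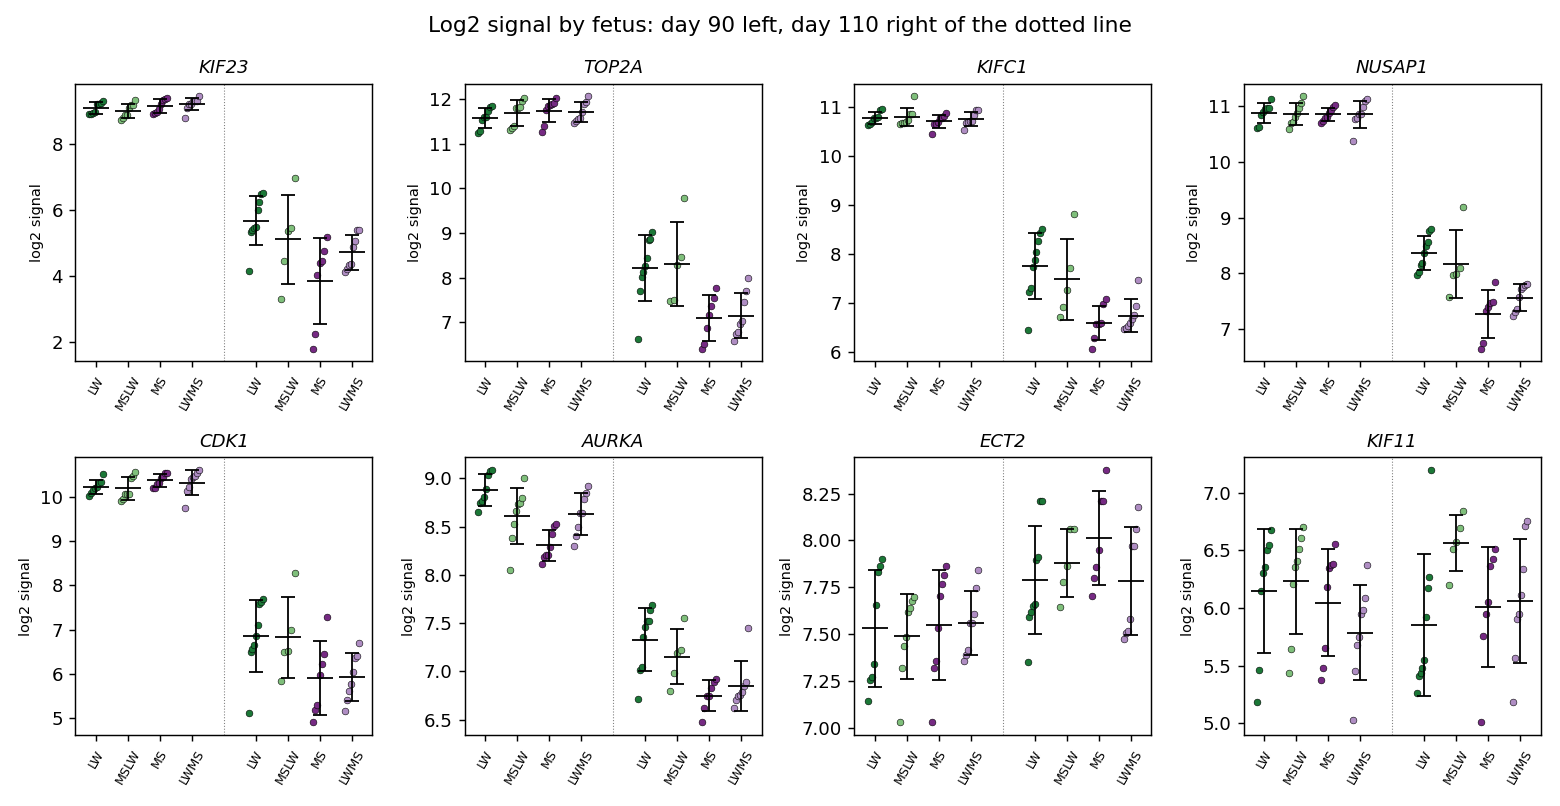
Log2 signal of 8 members, 1 point per fetus, with the group mean and 1 SD; day 90 is left and day 110 right of the dotted line, and the vertical scales differ between panels. KIF23, TOP2A, KIFC1, NUSAP1, CDK1 and AURKA are lower in every fetus of day 110, ECT2 and KIF11 overlap between ages.

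The question of how the breeds differ was asked at each age. At day 90 the purebreds were close: 1 of 35 members was called, AURKA, lower in MS by 0.58 ± 0.12 (adjusted p = 0.000239), where 6.61% of all probes were called lower. AURKA read 8.66 to 9.09 (median 8.85) in LW and 8.11 to 8.53 (median 8.25) in MS, with no overlap, and was lower in MS at day 110 as well, by 0.58 ± 0.12, where LW fetuses read 6.72 to 7.69 and MS fetuses 6.47 to 6.92. Its age change was therefore nearly equal in both breeds (difference -0.01 ± 0.17). A second AURKA probe was called lower at day 90, by 0.67 ± 0.16, and the last, lower by 0.33 ± 0.24, was not.

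At day 110, 19 of 35 members were called lower in MS and none higher, where 15.2% of all probes were lower. The median difference was -0.74, against 0.01 over all probes. All 4 genes of anaphase onset were among the 19, 4 of 6 kinases, cyclins and transcription factors, 4 of 5 kinetochore genes, 4 of 8 spindle genes, 2 of 5 cytokinesis genes (KIF23 and KIF4A) and 1 of 4 condensation genes (TOP2A), and none of the 3 passenger genes. KIF23 was lower by 1.84 ± 0.34 (adjusted p = 1.33e-05), but by 0.56 with normexp, and so its size rests on the treatment of dim signal. KIF2C, above background on no MS array, was called here and not with 3 other treatments of background, among them the deposited values. CDC20, well above background on 2 of 7 MS arrays, lost its call in 10 of 20 recomputations. CENPF lost its call in 4 of 21, CDK1 in 3 of 21 and BUB1 in 3 of 20. STMN1, NUSAP1 and SPC25 had every LW fetus above every MS fetus, as had 4.5% of all probes. SPC25, also among the 19, was named only through the study's lists of changed probes, so its difference is not independent of that choice. For NUSAP1 the 9 LW fetuses ran from 7.97 to 8.79 (median 8.36) and the 7 MS fetuses from 6.65 to 7.84 (median 7.40), a difference of 1.09 ± 0.15 (adjusted p = 3.07e-08). With the other background treatments the median was -0.41 (median spot signal) and -0.29 (normexp), with 18 and 17 members called.

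Tested as an interaction, the age change itself was larger in MS than in LW for 8 of 35 members, against 3.39% of all probes: KIF23, TOP2A, SPC25, KIFC1, NUSAP1, KIF4A, SPC24 and STMN1. SPC25 was named only through the study's lists of changed probes, so its call is not independent of that choice. The study had also named NUSAP1 and STMN1 from genes whose age change differed between genotypes in these data. Their calls, and the count of 8, are not independent of earlier results either. The median difference was -0.76, and -0.24 with normexp. For KIF23 it was -1.90 ± 0.48 (adjusted p = 0.00477), and -0.64 with normexp. For TOP2A, bright at both ages, it was -1.28 ± 0.34 (adjusted p = 0.00841), and -1.05 to -1.48 over the alternatives. The TOP2A call was lost in 8 of 21 recomputations and that of KIF4A in 4 of 21, while NUSAP1, SPC24 and STMN1 stayed called in all. No value is given for the main probes of KIF2C, PRC1 and CDCA8, whose MS arrays of day 110 were all below the background limit. The count was 5 without LW fetus 3 of day 110 and 14 without LW fetus 7, the LW fetus with the lowest level, so it rests on single fetuses.

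The crosses were made to part the sow's from the boar's genotype. With each fetus coded by the breed of its sow and of its boar, 13 of 35 members had an age change that depended on the sow, all with a larger fall in fetuses of MS sows, against 1.89% of all probes. The 13 were TOP2A, FAM64A, CENPF, UBE2C, SPC25, KIFC1, NUSAP1, SPC24, PTTG1, CCNB1, KIF4A, MYBL2 and STMN1, with log2 differences between -1.23 (TOP2A, ± 0.25, adjusted p = 0.000819) and -0.61 (STMN1, ± 0.12, adjusted p = 0.000795). SPC25, among the 13, was named only through the study's lists of changed probes, so its call is not independent of that choice. The other members were listed with earlier results of these data known, so their calls are not fully independent either. The median over the 35 was -0.77. For the boar no member was called in either direction, against 0.462% of all probes, 3 had an unadjusted p under 0.05 (AURKB, BIRC5 and TPX2, all higher with an MS boar), and the median was -0.04. KIF23, with a sow difference of -1.23 ± 0.34, was not called (adjusted p = 0.0167). The sow's breed and the litter cannot be told apart here. Sow breeds differ between litters and boar breeds within them, so leaving out the sow touches the 2 tests unequally. The counts for sow and boar are therefore not a like comparison. Over all its probes the study, with the sow as a random effect, reported more influenced by the paternal than by the maternal genotype.

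**Figure D3:**
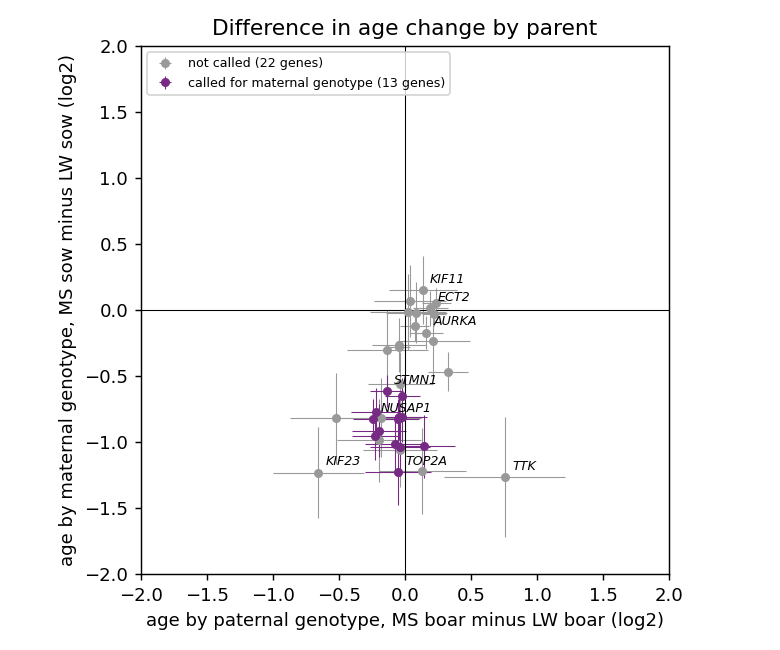
Each point is a member: the difference in its age change between MS and LW boars on the horizontal axis and between MS and LW sows on the vertical axis, both log2, with bars of 1 standard error on each side. The 13 called members, in purple, lie between -1.23 and -0.61 on the vertical axis and near 0 on the horizontal one; TTK and KIF2C, in grey, were mostly not above background at day 110.

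The group means followed the same order. At day 110 both groups of LW sows (LW and MSLW) had a higher mean than both groups of MS sows (MS and LWMS) in 26 of 35 members, an order found in 21.5% of all probes. At day 90 the order held in 9 of 35, against 23.9% of all probes. The exceptions at day 110 were ASPM, AURKB, BIRC5, CKAP2, ECT2, KIF11, NCAPH, PRC1 and SMC2. The 26 include ANLN, CCNB2, CDCA8, KIF2C, PLK1 and TTK, each well above background on at most 5 of 29 arrays at day 110. The order of their means there rests on signal mostly not above background. For KIFC1 the day 110 fetuses read 6.44 to 8.505 (median 7.88) in LW, 6.06 to 7.08 (median 6.56) in MS and 6.45 to 7.48 (median 6.63) in LWMS, and the 5 MSLW fetuses read 6.71, 7.26, 8.81, 7.72 and 6.91. MS and LWMS thus lay together at the low end, and LW and MSLW reached higher with wide overlap.

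Compared directly at day 110, 4 of 35 members were higher in MSLW than in LWMS, against 0.542% of all probes: CENPF by 1.28 ± 0.26 (adjusted p = 0.00225), FAM64A by 1.101 ± 0.25, TPX2 by 0.72 ± 0.17 and MYBL2 by 0.69 ± 0.15. The CENPF probe read 6.36, 6.67, 7.89, 7.03 and 6.31 in the MSLW fetuses and 4.37 to 6.37 in LWMS (median 5.66). Without MSLW fetus 3 none of the 35 was called, and the count ran from 0 to 9 as each of the 5 MSLW fetuses was left out. At day 90 no member differed between the crosses, with none under an unadjusted p of 0.05, against 0.5% of all probes called. Against the mid-parent mean of LW and MS the crosses had no called member at day 90, where 0.0495% of all probes were called and none of the 35 had an unadjusted p under 0.05, and none at day 110, where 0.0778% were called and 3 of the 35 were under 0.05.

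A mean over members gives 1 level per fetus. It was taken over the 22 members whose main probe was well above background on all 61 arrays. At day 90 this mean was 10.42 ± 0.06 (SD, n = 8) for LW, 10.41 ± 0.12 (n = 8) for MSLW, 10.42 ± 0.09 (n = 8) for MS and 10.43 ± 0.14 (n = 8) for LWMS. At day 110 it was 8.11 ± 0.32 (n = 9) for LW, 8.13 ± 0.51 (n = 5) for MSLW, 7.54 ± 0.24 (n = 7) for MS and 7.56 ± 0.20 (n = 8) for LWMS. The 5 MSLW fetuses read 7.62, 8.08, 8.96, 8.13 and 7.86, and fetus 3 had the highest value of its group in 21 of the 22 genes. The within-group SD of the log2 signal was larger at day 110 than at day 90 in 21 of the 22 members, SMC2 being the exception. The same held in 61% of all probes above background on every array. For ECT2 and KIF11, which did not fall, the SDs were nearly equal, 0.252 and 0.254, and 0.468 and 0.478. Most of the other members were dimmer at day 110, and the part of dimmer signal in the wider spread was not tested. On the 7 slides that held both at day 110, the mean of LW sows minus that of MS sows ran from 0.00 to 1.13. The sows were level on slide 7 (7.714 against 7.712), and each side of a slide held only 1 or 2 fetuses.

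**Figure D4:**
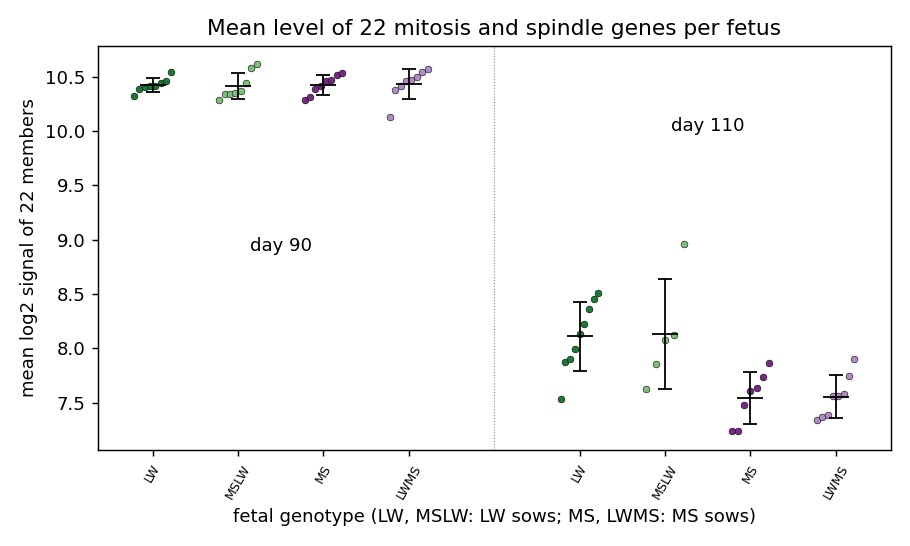
Mean log2 signal of the 22 members measured on every array, 1 point per fetus, with the group mean and 1 SD. All groups lie near 10.4 at day 90, and at day 110 LW and MSLW have means of 8.11 and 8.13 and MS and LWMS of 7.54 and 7.56.

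17 members had more than 1 kept probe, and 4 sets of probes shared a sequence (2 of STMN1, 1 each of CDC20 and MYBL2), so the 72 kept probes hold 68 sequences. Over all 72, 69 were lower at day 110 in LW and 68 in MS, against 23.5% and 28.1% of all probes. In MS 36 were lower than in LW at day 110, against 15.2%, and 28 had the sow effect, against 1.89%. These counts take several probes of 1 gene as separate, and 4 of the probes were named only by the study's lists. The 7 other STMN1 probes fell by 2.45 to 2.69 in LW and the 3 other CENPF probes by 2.76 to 3.29. Probes disagreed for KIF11, as above, and for SMC4, where 4 of 5 other probes fell by 1.57 to 1.63 in LW and the last had a difference of 0.17. The 5 other MYBL2 probes fell by 0.56 to 2.29 in LW. The second PRC1 probe, which passed at both ages, fell by 0.66 in LW and by 1.80 in MS, while the first had only bounds. The second ASPM probe, also named by the study's lists only, was called lower in LW and MS and called for the sow, and the first was not called for the sow. Both ASPM probes passed only through day 90, so their sizes cannot be set against each other. Allele differences under a probe were not tested.

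**Figure D5:**
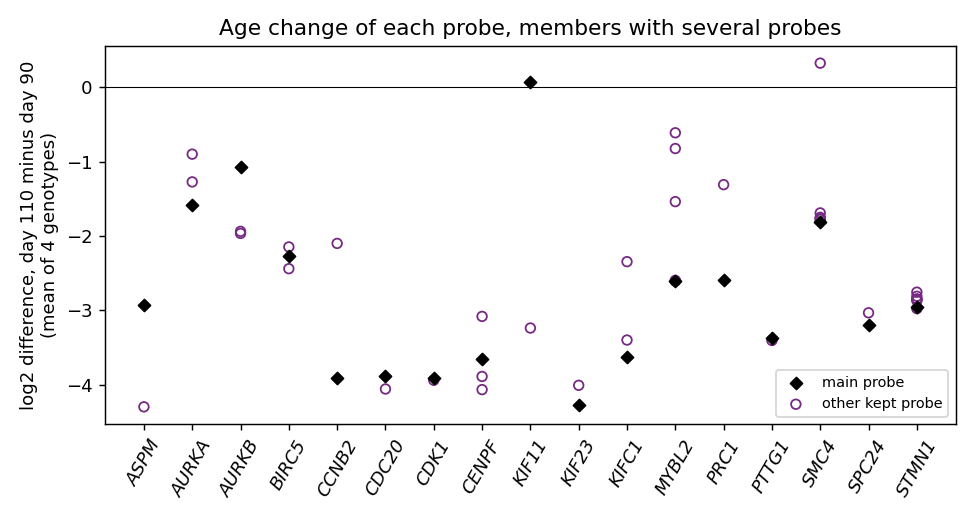
Each point is a kept probe's log2 difference, day 110 minus day 90, averaged over the 4 genotypes, for the 17 members with several; diamonds are the main probes and circles the others. Most genes' probes lie together below 0, while those of KIF11, SMC4, MYBL2, ASPM, CCNB2 and PRC1 are spread, some of them with day 110 signal not above background.

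Other genes of mitosis, 73 by name of which 41 had a kept probe, also fell: 32 of 41 were lower in LW and 34 in MS, against 23.5% and 28.1% of all probes, with medians of -1.40 and -1.58. These 41 were not split by the age at which they passed the filter, and any that passed only through day 90 had to be dimmer later. The largest fitted falls, averaged over genotypes, were those of SKA1, a kinetochore protein (4.04), MELK, a kinase (3.77), and ESPL1, or separase (3.66). Their detection at day 110 is not given, so these sizes may not be exact. The largest positive mean differences were those of CDCA2 (0.53, called in 2 genotypes), CEP55 (0.42, called in 1) and MKI67 (0.41, called in 4), the gene of the proliferation marker Ki-67. The MKI67 probes disagreed: a second one had differences of 0.18 to 0.37 and the last fell by 1.52 to 1.90. For the sow, 8 of the 41 were called with a larger fall in fetuses of MS sows, against 1.89% of all probes, and none with a smaller one. The genes of the ubiquitin ligase that CDC20 and UBE2C work with were called about as often as all probes. Of 12 measured subunits and activators of the anaphase-promoting complex, 2 were lower in LW and 2 in MS, near the shares of all probes above, with medians of -0.08 and -0.09, and 1 was higher in MS. The most negative mean differences were those of FZR1 (-0.34, called in 4 genotypes), ANAPC13 (-0.24, called in 2) and CDC16 (-0.20, called in 3). The most positive were those of CDC26 (0.18, not called), ANAPC2 (0.16, called in 1) and ANAPC5 (0.10, not called). Of 8 measured genes of cohesin, which holds sister chromosomes together also outside mitosis, 3 were lower in LW and 2 in MS, also near those shares, and RAD21 and SMC3 fell by 0.66 and 0.54 on average and PDS5A had a mean difference of -0.15. The 1 with a positive mean difference was SMC1A (0.15, not called).

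Markers of cell types were read against the shares of all probes lower at day 110, given above, and higher, 21.8% in LW, 20.8% in MSLW, 28.6% in MS and 25.1% in LWMS. All 5 measured fibroblast markers (COL1A1, COL3A1, DCN, LUM and PDGFRA) were lower at day 110 in every genotype, with a median of -0.97 in LW and -1.83 in MS. Their mean log2 level ran from 13.6 to 14.1 at day 90, and at day 110 from 12.68 to 13.12 in LW, 12.43 to 13.02 in MSLW, 11.98 to 12.25 in MS and 12.25 to 12.94 in LWMS. At day 110, 4 of the 5 were lower in MS, and COL1A1 and COL3A1 had a called sow difference, of -0.57 and -0.60. For the boar 1 of the 5 was called lower, and all 5 differences were negative for either parent, with a median of -0.42 for the sow and -0.39 for the boar. Of 6 endothelial markers, 4 were lower at day 110 in each genotype, and none had a called sow difference. Of 4 measured satellite cell and myoblast markers (MYF5, MYOD1, MYOG and PAX7), 2 were lower in each genotype and up to 1 higher, with the mean level at 8.27 to 9.14 at day 90 and 8.10 to 8.81 at day 110. Erythroid and leukocyte markers had 2 of 4 and 2 to 3 of 6 lower, 5 to 7 of 8 muscle fibre genes were higher and up to 1 lower, and adipocyte and Schwann cell markers had 1 of 4 and 1 to 2 of 4 higher, with 2 adipocyte markers lower in MS. With 4 to 6 genes a list, counts of 1 or 2 are not apart from the shares of all probes. The part of these cell types in the falls of the mitosis genes was not tested.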

How the data were processed

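The authors hybridised RNA of 61 fetuses to 1-colour Agilent arrays, 1 per fetus, on 8 slides of 6 to 8 arrays that each held 6 to 8 of the 8 groups, and scanned them with Agilent Feature Extraction 10.10.1.1. The deposited scanner files hold spot intensity. The deposited value table holds log2 values after the authors' quality control and quantile normalization, and was used as an alternative. Its IDs are the rows of the scanner files (r of 0.986 to 0.992 with the processed signal of the same array, against 0.00 to 0.01 by feature number). Its input signal is not given in the sources used here.

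From the scanner files, the processed signal of spots that are no controls was taken, non-uniform spots were left out (4 to 802 per array), repeated spots were averaged, and the values were quantile normalized and log2 transformed. Of 60305 probes, 42436 were well above background on 80% of the arrays of a group and were tested with limma 3.58.1 in R 4.3.3, all 8 groups in 1 fit, with Benjamini-Hochberg adjustment over all of them and a threshold of 1%. Sow and boar effects came from a model with age, the breed of each parent, their product and the product of age with each parent. The authors' model had the sow as a random effect, which could not be fitted here. The fits were tested on simulated data. Differences are log2, with the standard error of the fit. The number of arrays limits the precision.

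Genes were named by the array's symbol, or for 4 probes by the study's lists of probes. Members and lists were chosen with earlier results of these data known. Each measured member is named under its role, by its array-named kept probe with the highest mean. Values by fetus are given for the 3 members with the largest and 3 with the smallest age change, the same for the MS minus LW difference in it, and those called against the majority. CDK1, KIFC1, NUSAP1, CENPF and TTK were added after their values were seen. Of other mitosis lists, the 3 largest changes in each direction are named. Alternatives were another spot signal, another background correction, scaling to the 75th percentile, other filters, slide as a block, subsets of fetuses and leaving fetuses out. Leaving out LW fetuses of day 110 or the dimmest MS array, and counting only members that passed at both ages, were chosen after seeing the data.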

Additional observations from a re-analysis of the deposited data

Results flagged for a closer look

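Single fetuses stood apart from the rest of their group, by Dixon's test at 95%, in 20 of 288 tests, and chance gives about 1 in 20. At day 90 the highest value of its group stood apart for KIF4A in LW (10.95) and KIFC1 in MSLW (11.23), and the lowest for SMC2 (5.81), STMN1 (13.93) and UBE2C (10.35) in MSLW and for STMN1 (13.95), UBE2C (11.15) and the mean of 22 members (10.13) in LWMS. The 3 of LWMS were the same fetus, number 6. At day 110 the lowest stood apart for AURKB (9.24), CDK1 (5.10), KIF23 (4.17) and PRC1 (1.60) in LW and for AURKB (9.34), CKAP2 (3.28) and NCAPH (6.49) in MS. In LW fetus 7 gave those of CDK1, KIF23 and PRC1. The highest stood apart for TTK in LW (5.75), for KIF2C (2.21) and STMN1 (11.29) in MS, and for AURKA (7.45) and KIFC1 (7.48) in LWMS.

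The age change differed between the purebreds, MS minus LW, by the interaction test of limma for KIF23 (-1.90), TOP2A (-1.28), SPC25 (-1.17), KIFC1 (-1.10), NUSAP1 (-1.07), KIF4A (-1.01), SPC24 (-0.89) and STMN1 (-0.76). It differed with the sow, MS minus LW, for TOP2A (-1.23), FAM64A (-1.04), CENPF (-1.03), UBE2C (-1.02), SPC25 (-0.95), KIFC1 (-0.91), NUSAP1 (-0.83), SPC24 (-0.83), PTTG1 (-0.81), CCNB1 (-0.81), KIF4A (-0.77), MYBL2 (-0.65) and STMN1 (-0.61). Whether the sow's effect differs from the boar's was not tested.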

How the results depend on the processing

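Of 226 recomputed counts of called members, 214 stayed within 1.5 times the count reported. When a probe had to be well above background on every array, fewer members were tested. The members called between the ages, in either direction, were then 21 in LW, 21 in MSLW, 22 in MS and 21 in LWMS. The count in MS takes in ECT2, which was called higher at day 110. For MSLW against LWMS at day 110 the count was 1 in a fit of the crosses alone, and 0 to 9 as each MSLW fetus was left out (9, 2, 0, 1 and 5 without fetus 1 to 5). For the interaction of age with purebred genotype it was 5 with a gene called over its probes by majority, and, in settings chosen after seeing the data, 5 to 14 as each LW fetus of day 110 was left out; the cause was not tested. Counts for MS against LW at day 110 ran from 15 to 21. The age change of KIF11 in MS, not called, was 0.0066 without MS fetus 3 of day 90. Of 1243 values of single genes, 58 were no longer called. Scaling to the 75th percentile moved the median of all probes to 0.13 for the age change in MS. No paired analysis was possible because the labels do not tie fetuses to sows. The fetus numbers used here only count the fetuses within each group and are not those of the labels. Dim signal limits the 8 members that passed at day 90 only.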
